A study of Mus musculus with 24 samples.

Results

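The genes examined here make and load the peptides that MHC class I molecules show at the cell surface. They are 10 of the 24346 gene symbols measured in each of 24 libraries of mouse colorectal tissue. They were chosen by name, with earlier results of these data known. B2m, H2-K1 and H2-D1 form the class I molecule, and Tap1, Tap2 and Tapbp load it. Psmb8, Psmb9 and Psmb10 are the catalytic subunits of the immunoproteasome, and Nlrc5 is the transcriptional activator of the class I genes. All 10 had a value above 0 in every library, and all 10 passed the expression filter of at least 1 FPKM (fragment counts scaled by transcript length and by the library's total) in at least 4 libraries.

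The mice had been given azoxymethane, a carcinogen, and dextran sulfate sodium, an irritant of the colon lining (AOM/DSS), which together produce colon tumors, and this treatment was common to every group. Libraries carried the genotype label c-MAF_KO or WT and were annotated as tumor or normal. The titles divided them further into the groups KO-8-homo, KO-8-hetero and KO-1-hetero (3 tumors and 2 normal pieces each), WT-young (4 tumors and 2 normal pieces) and WT-old (1 tumor and 2 normal pieces); the titles write these groups as 8_homo_ko, 8_hetero_ko, 1_hetero_ko, wild_young and wild_old, each followed by the word drug. The labels gave neither the meaning of the leading numbers nor the strain, sex, exact age, knockout allele or promoter of any Cre, and they did not say which pieces came from 1 animal, so that p-values measure only the spread between these libraries.

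Class I molecules display fragments of proteins made inside the cell to CD8 T cells. The proteasome cuts proteins into peptides, and under interferon gamma its constitutive catalytic subunits are replaced by those of the immunoproteasome. The TAP transporter moves the peptides into the endoplasmic reticulum, where tapasin holds the transporter next to an empty heavy chain paired with beta-2-microglobulin. Interferon signalling, in part through IRF1, and the activator NLRC5, which acts with RFX factors at the class I promoter, raise transcription of most of these genes. In colon tumors, loss of the pathway is a known route of escape from T cells.

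Relative sequencing depth, estimated from low values, ran from 0.691 to 1.86 of the median library, and 12074 to 13290 genes reached 1 FPKM. Maf, the gene named by the genotype label, was not lower in KO-labelled tumors, at 2.62 to 7.40 FPKM in the 9 libraries. The WT-young tumors, at 1.63 to 2.26 FPKM, all lay below these 9, and the WT-old tumor had 7.26 FPKM. Among normal libraries the highest values, 6.27 and 3.99 FPKM, were those of KO-8-homo. KO is therefore used below as a label, and no difference is read as an effect of less Maf transcript. Xist, which marks female cells, measured 7.38 to 49.9 FPKM in 6 libraries and at most 0.0719 FPKM in the other 18. The 6 were KO-1-hetero tumor replicate 3, KO-8-hetero tumor replicate 3 and both normal libraries of each of these groups. The WT-old tumor stood apart in its leukocyte markers (Ptprc, Cd52 and Coro1a), which summed to 1490.5 FPKM against 109 to 342 FPKM in the other 13 tumors. For the genes examined here, WT-labelled tumors against normal tissue and tumors of the KO against the WT label are also given without it. Their interaction of label and tissue is given only with the WT-old tumor included. So are the tests of wider pathway lists and of ratios in WT-labelled tumors against normal tissue. The part of its leukocytes in those results was not tested. Epithelial markers (Epcam, Cdh1, Krt8, Krt18, Krt19 and Vil1) were present in every library, with sums of 3928 to 13867 FPKM. These are bulk samples, in which fewer cells of a type and less RNA per cell cannot be told apart.

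Of the 10 genes, 7 lie on chromosome 17 within 1.35 Mb of the mouse MHC (GRCm38.p6, the patch release of mm10). B2m lies on chromosome 2 (122147687 to 122153082), and Psmb10 and Nlrc5 on chromosome 8. Psmb9, Tap1, Psmb8 and Tap2 are neighbours within 34.3 kb, and the starts of Psmb9 and Tap1 are 225 bases apart on opposite strands. RefSeq promoter sequence was at hand for 8 of the 10 genes, and none was at hand for Tap2 and Nlrc5. Below are the stretches upstream of B2m and H2-K1, the light chain and a classical heavy chain, shown because both genes were called in the main comparisons and their elements can be compared. Distances are counted from the start in the RefSeq promoter table, which for H2-K1 lies inside the annotated extent of the gene (33996012 to 34000619), so that its stretch is upstream of that start but within the extent. The sequences are read 5′ to 3′ on the gene's strand, and capitals mark matches on either strand to an interferon-response element (the overlapping forms GAAANNGAA and GAANNGAAA), an NF-kB site (GGGATTCCC), the core of the X2 box (TGACG) and the Y box (CCAAT). The X and Y boxes are the elements that RFX, CREB or ATF, and NF-Y factors bind and at which NLRC5 is recruited.
B2m (chr2:122147486-122147685, plus strand): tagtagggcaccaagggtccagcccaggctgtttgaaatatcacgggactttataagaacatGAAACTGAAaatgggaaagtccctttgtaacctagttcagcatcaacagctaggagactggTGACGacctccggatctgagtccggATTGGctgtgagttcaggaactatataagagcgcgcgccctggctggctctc
H2-K1 (chr17:34000348-34000547, minus strand): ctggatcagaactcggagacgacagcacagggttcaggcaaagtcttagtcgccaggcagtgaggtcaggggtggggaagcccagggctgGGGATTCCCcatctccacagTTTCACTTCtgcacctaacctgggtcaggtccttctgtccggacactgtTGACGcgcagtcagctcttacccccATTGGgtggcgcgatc

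Some elements had the same spacing in different genes. From the NF-kB match to the interferon-response match, H2-K1 and H2-D1 each span 29 bases and are identical at 28 of them:
H2-K1 (chr17:34000429-34000457, minus strand): GGGATTCCCcatctccacagTTTCACTTC
H2-D1 (chr17:35262924-35262952, plus strand): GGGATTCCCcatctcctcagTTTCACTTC
From the X2 core to the Y box, H2-K1, H2-D1 and B2m span 30 bases each:
H2-K1 (chr17:34000359-34000388, minus strand): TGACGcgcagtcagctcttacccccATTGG
H2-D1 (chr17:35262993-35263022, plus strand): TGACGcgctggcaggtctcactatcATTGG
B2m (chr2:122147609-122147638, plus strand): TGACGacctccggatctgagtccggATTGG
Over this span, H2-K1 and H2-D1 are identical at 23 of 30 positions, H2-K1 and B2m at 13, and H2-D1 and B2m at 12. The interval between Tap1 and Psmb9, which start in opposite directions, also held the X2 core:
Tap1 (chr17:34187458-34187487, plus strand): cccagagacaggTGACGacagagggtcctg

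In the 250 bases before the start, TGACG was found in 5 of the 8 promoters (B2m, H2-K1, H2-D1, Tap1 and Psmb9) and in 17.8% of all 32851 mouse promoters. CCAAT was found in 6 of the 8 and in 33.8% of all. The windows of Tap1 and Psmb9 overlap, and their TGACG and CCAAT matches are the same letters. GGGATTCCC was found in H2-K1 and H2-D1 and in 0.301% of all. GAAANNGAA was found in B2m (7.13% of all), GAANNGAAA in H2-K1 and H2-D1 (6.31%), and TTCNNNGAA, the form of a gamma-activated site, in Psmb8 (7.02%). No match of these 6 patterns lay in the Psmb10 window. A match is a description of letters and not a measured site.

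**Figure D1:**
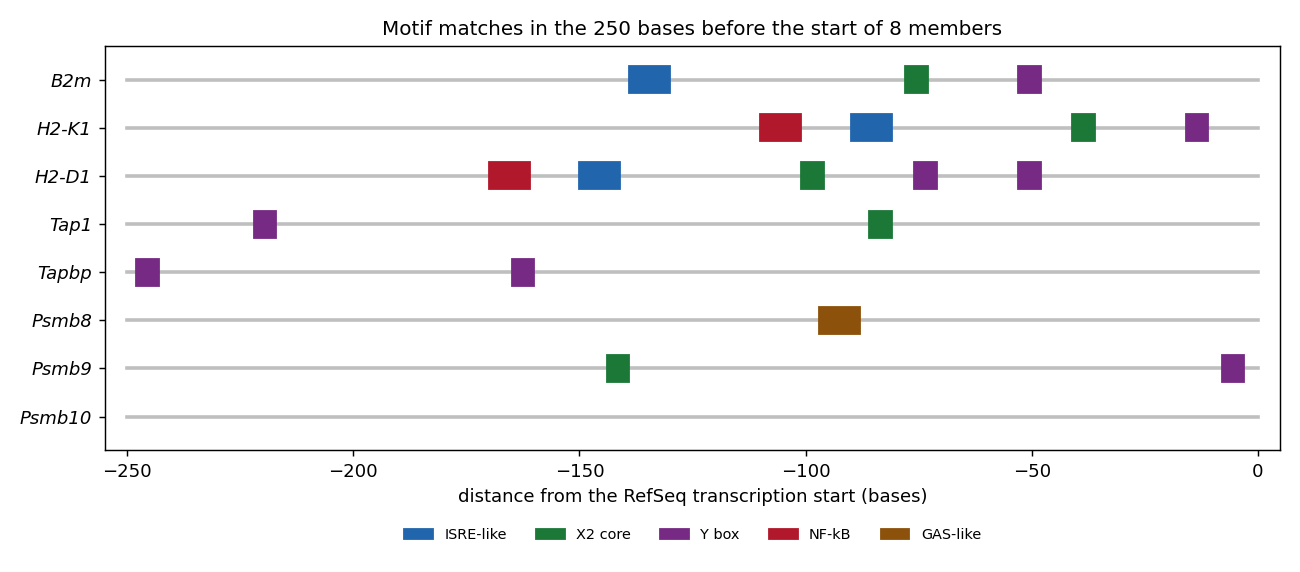
Positions of motif matches (coloured boxes) along the 250 bases before the RefSeq start of 8 genes; the horizontal axis is the distance from the start in bases. The X2 core and Y box of B2m, H2-K1 and H2-D1 are drawn at the same spacing, and Psmb10 has no match.

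In WT-labelled mice most genes of the pathway were higher in tumors than in normal tissue. Of the 10 genes, 8 rose (limma on log2(FPKM + 1), Benjamini-Hochberg adjusted p below 0.05), against 15.5% of all 13799 tested genes that were called higher and 30.4% called in either direction. By unadjusted p below 0.05 there were likewise 8 of the 10, and 42.5% of all genes. The median difference over all 10, with Tapbp and Psmb10 that did not pass, was 1.25 on the log2(FPKM + 1) scale, against 0.02 for all tested genes.

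Nlrc5, the activator of the class I genes, differed most. Its level was 10.4, 11.2, 11.8 and 10.4 FPKM in the WT-young tumors, with 12.4 FPKM in the WT-old one. In normal tissue it was 0.867 and 0.473 FPKM in WT-young and 0.938 and 1.86 FPKM in WT-old. No WT-labelled tumor came near the normal range, and the difference was 2.63 ± 0.35 (SE) on the log2(FPKM + 1) scale (adjusted p = 3.29e-05), a scale that understates the change of so low a gene.

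Tap1 and Tap2 encode the paired subunits of the peptide transporter. The WT-young tumors had 43.0, 44.2, 51.6 and 68.9 FPKM of Tap1 and the WT-old tumor had 58.9 FPKM, against 7.60, 10.9, 9.21 and 15.8 FPKM in the 4 WT-labelled normal libraries. All 5 tumors lay above all 4 normal libraries, a rise of 2.22 ± 0.41 (SE, adjusted p = 0.000493) on the log2 scale. Tap2 rose by 1.5 ± 0.32 (SE, adjusted p = 0.00139), from 8.94 to 18.4 FPKM in normal tissue to 29.3 to 54.4 FPKM, again with ranges apart. Tapbp, which encodes tapasin, measured 86.2 to 119.8 FPKM in the tumors and 50.6 to 99.95 FPKM in normal tissue. Its ranges overlapped, and its difference of 0.46 (95% limits from -0.00 to 0.92, adjusted p = 0.12) did not pass the test.

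Of the immunoproteasome subunits, Psmb8 and Psmb9, whose genes lie in the MHC beside Tap1, rose by 1.46 ± 0.42 and 1.29 ± 0.41 on the log2 scale (SE, adjusted p = 0.0114 and 0.022). The call of Psmb9 was lost in 4 of 17 other settings (limma, adjusted p up to 0.0829), and that of Psmb8 in none. Among the 4 were the fits without the WT-old libraries, without WT-young normal replicate 2 and without WT-old normal replicate 1. Psmb8 measured 146, 153, 159, 189 and 195 FPKM in the 5 tumors and 36.9, 68.3, 62.6 and 82.5 FPKM in the 4 normal libraries. Psmb10, the subunit encoded outside the MHC, measured 113, 115, 117, 172 and 95.4 FPKM in the tumors and 106, 97.5, 129.7 and 122 FPKM in normal tissue. The 2 ranges of Psmb10 were interleaved, and its difference of 0.09 (95% limits from -0.54 to 0.71, adjusted p = 0.848) did not pass the test.

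All 3 genes of the class I molecule rose. Transcripts of B2m stood at 2046, 1886, 2148 and 2506 FPKM in WT-young tumors, at 1884 FPKM in the WT-old one, and at 901, 612, 1224 and 984 FPKM in normal tissue, a rise of 1.2 ± 0.37 (SE, adjusted p = 0.0172). H2-K1, at 886 to 1371 FPKM in tumors and 437 to 709 FPKM in normal tissue, rose by 0.92 ± 0.33 (adjusted p = 0.0408), and H2-D1, at 676 to 936 FPKM against 320.3 to 561 FPKM, by 0.82 ± 0.27 (adjusted p = 0.0265). For B2m, H2-K1 and H2-D1 the lowest tumor lay above the highest normal library. The call of H2-K1 was lost in 11 of 17 other settings (adjusted p up to 0.123), among them every removal of a single library but that of the WT-old tumor. The call of B2m was lost without WT-young normal replicate 2, and that of H2-D1 without WT-young tumor replicate 3 or normal replicate 1. Of the transcript sequence of H2-K1, 8.79% in windows of 50 bases is shared with other genes, mostly H2-D1, and of that of H2-D1, 14.3%, mostly with H2-Q1, so the split between the heavy chains is uncertain. For B2m, Psmb8, Psmb9, Psmb10 and Nlrc5 no window was shared.

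In WT-young alone, without the leukocyte-rich WT-old tumor, 8 of the 10 rose, all but Tapbp and Psmb10, where 26.1% of all genes were called and 13.7% were called higher. By unadjusted p below 0.05 there were 9 of the 10 and 39.2% of all genes. Nlrc5 rose by 2.85 ± 0.35 (SE), Tap1 by 2.36 ± 0.37 and H2-K1 by 1.14 ± 0.34. Ranges were apart in 9 of the 10 genes (all but Tapbp), and in 25.3% of all genes in that direction. Between 4 and 8 of the genes were called when 1 library was left out, 4 of them without WT-young normal replicate 1, whereas in the comparison over all WT-labelled libraries the lowest count was 5, without WT-young normal replicate 2. Leukocyte markers summed to 118 to 144 FPKM in WT-young tumors and to 39.9 and 125 FPKM in WT-young normal tissue. Of the T cell markers 3 of 6 rose (Cd3d, Cd3g and Cd2), with list sums of 11.9 to 21.7 FPKM against 3.62 and 12.8 FPKM. Of the macrophage markers 2 of 6 rose, with sums of 248 to 363 FPKM against 159 and 201 FPKM, and of the colonocyte markers 3 of 5 fell, with sums of 455 to 1719 FPKM against 4795 and 5265 FPKM. Neutrophil markers (S100a8, S100a9, Csf3r and Cxcr2) rose in all 4 of 4 genes, with sums of 68.5 to 458 FPKM against 2.19 and 2.96 FPKM, and smooth muscle markers fell in 5 of 5, with sums of 123 to 219.5 FPKM against 1681 and 5804 FPKM. The part of these other cells in the rise was not tested.

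**Figure D2:**
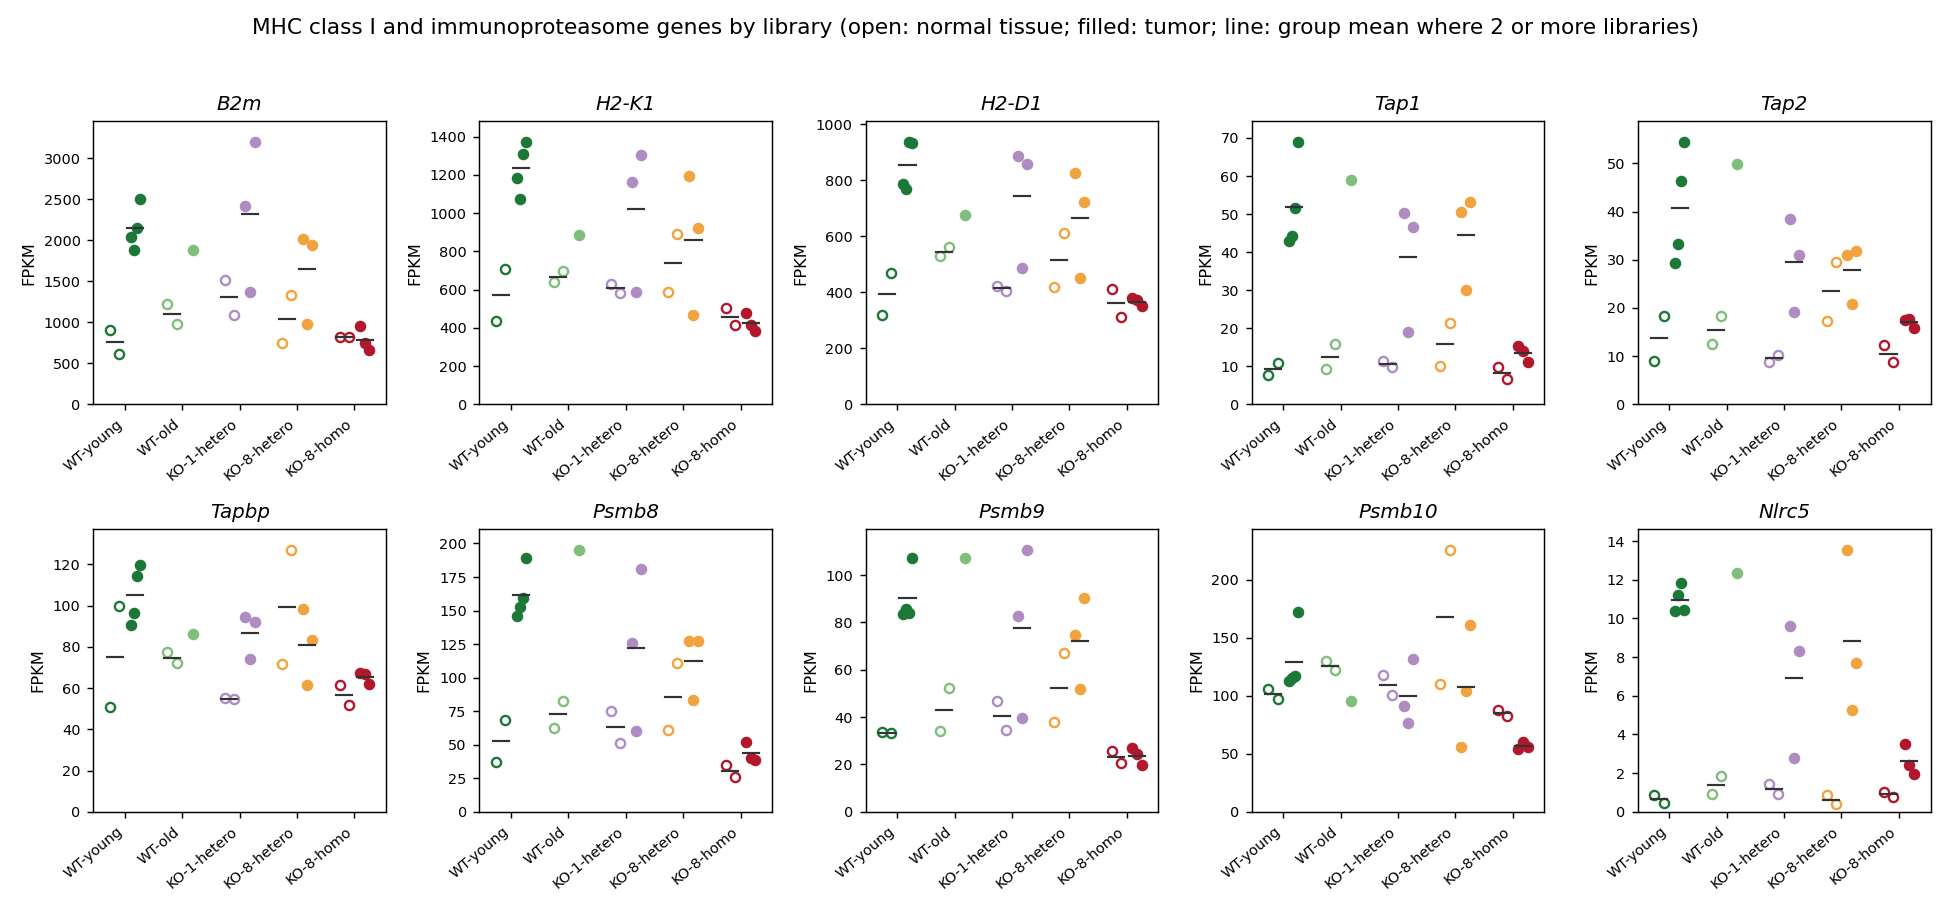
FPKM of each gene in every library (vertical axes start at 0), with normal tissue as open and tumors as filled circles and a line at the mean of groups with 2 or more libraries. The 4 WT-young tumors lie high in nearly every panel. The range of the 3 KO-8-homo tumors overlaps that of their own normal tissue for H2-K1, H2-D1, B2m and Psmb9. For the other 6 genes these ranges do not overlap, but for Tapbp they nearly touch (61.80 FPKM in a tumor and 61.73 FPKM in a normal library).

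In KO-labelled mice 3 of the 10 genes rose in tumors and none fell, where 47.2% of all tested genes were called and 24.1% were called higher, so their share was near that of all genes. At an unadjusted p below 0.05 there were also 3 of the 10, and 54.4% of all genes. The 3 were Nlrc5 (1.73 ± 0.28 SE, adjusted p = 4.61e-05), Tap1 (1.28 ± 0.32, adjusted p = 0.0026) and Tap2 (0.80 ± 0.25, adjusted p = 0.0113). Of these, only Nlrc5 had ranges apart, at 1.97 to 13.6 FPKM in 9 tumors and 0.386 to 1.45 FPKM in 6 normal libraries. Psmb10 had a difference of -0.47 (95% limits from -0.96 to 0.02, adjusted p = 0.106). Tissue and Xist level were partly mixed in this comparison and cannot be fully told apart. Both normal libraries of KO-1-hetero and of KO-8-hetero had high Xist, while among their tumors only replicate 3 of each had. With a term for the Xist level in the model, 7 of the 10 were called. The share of all genes called in that fit is not given here, so this count cannot be set against it.

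The size of the tumor effect was not shown to differ between the labels. The KO side of this test is the comparison in which tissue and Xist level were partly mixed. The interaction of label and tissue was below 0 for all 10 genes, from -0.94 for Tap1 to -0.26 for Tapbp, with adjusted p = 0.986 for each. No gene of all 13799 passed this test (0%), and by unadjusted p below 0.05 there were 0 of the 10 and 4.74% of all genes. Normal tissue did not differ detectably by label either, with 0 of the 10 and 0% of all genes called. At an unadjusted p below 0.05 there were 0 of the 10 and 4.67% of all genes. KO-8-homo normal tissue alone was not tested against other normal tissue. Its libraries had at most 35.2 FPKM of Psmb8, 25.7 FPKM of Psmb9 and 87.6 FPKM of Psmb10. All other normal libraries had at least 36.9, 33.2 and 97.5 FPKM of these subunits. For the rest of the 10 genes these ranges overlapped. The share of all genes with ranges apart between these normal libraries is not given here. This separation of the subunits, between 35.2 and 36.9 FPKM for Psmb8, thus cannot be set against it.

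Between the tumors of the 2 labels, 0 of the 10 genes passed the test, against 0.00725% of all genes, or 1 gene. All 10 were lower in the 9 KO-labelled than in the 5 WT-labelled tumors, from -1.03 for Psmb8 to -0.39 for Tapbp on the log2 scale, with a median of -0.76 against -0.01 for all genes. Adjusted p ran from 0.419 to 0.638. Unadjusted p was below 0.05 for 9 of the 10, all but B2m, and for 8.31% of all genes. B2m measured 663 to 3197 FPKM in KO-labelled tumors, with a median of 1365 FPKM, and 1884 to 2506 FPKM in WT-labelled tumors. The KO-labelled tumors thus spanned both sides of the WT range for B2m, and their levels are given below by title group. Without the WT-old libraries all 10 were still lower, from -0.98 for Psmb8 to -0.44 for Tapbp, and 0 passed the test.

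The KO-8-homo tumors were the lowest of the title groups. Each KO group was compared with the same 4 WT-young tumors, so that these comparisons share their controls. In KO-8-homo, 7 of the 10 genes fell (limma, adjusted p below 0.05), where 0.457% of all genes were called, 0.399% lower and 0.058% higher. All 10 had ranges apart and lower, as had 11.4% of all genes, and all 10 had an unadjusted p below 0.05, as had 10.1% of all genes. The median difference of the 10 was -1.50, against 0.00 for all tested genes. Of the 55 genes called lower in this comparison, 7 were among the 10, and a further 10 came from the lists of the pathway described below. The 10 genes and the lists were chosen with earlier results of these data known. These counts are therefore a description and no test of the pathway.

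Among the immunoproteasome subunits, Psmb9 and Psmb8 fell. The KO-8-homo tumors had 27.0, 24.3 and 19.6 FPKM of Psmb9, against 83.5, 85.8, 83.9 and 107 FPKM in WT-young. Every KO-8-homo tumor lay far below every WT-young tumor, and the difference was -1.89 ± 0.29 (SE, adjusted p = 0.00469), or 0.27-fold on the log2(FPKM + 1) scale. Psmb8 fell alike, from 146 to 189 FPKM in WT-young to 52.4, 40.5 and 38.5 FPKM (-1.87 ± 0.32, adjusted p = 0.00922). Psmb10 measured 54.2, 60.1 and 55.8 FPKM against 113 to 172 FPKM. Its difference of -1.15 (95% limits from -1.76 to -0.55) had an adjusted p of 0.117 and was not called.

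Among the loading genes, Tap1 fell from 43.0 to 68.9 FPKM in WT-young to 15.3, 14 and 11.1 FPKM (-1.86 ± 0.32 SE, adjusted p = 0.0117). Tap2 stood at 17.4, 17.6 and 15.9 FPKM in KO-8-homo, against 29.3, 33.3, 46.4 and 54.4 FPKM in WT-young. Tapbp measured 67.1, 66.9 and 61.8 FPKM against 90.5, 96.4, 114 and 119.8 FPKM. Neither Tap2 nor Tapbp overlapped between the groups, but neither was called: -1.18 (adjusted p = 0.097) for Tap2 and -0.67 (adjusted p = 0.26) for Tapbp, the smallest difference of the 10.

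The class I molecule and its activator fell as well. H2-K1 was at 477, 413 and 381 FPKM in KO-8-homo, against 1185, 1074, 1308 and 1371 FPKM in WT-young (-1.54 ± 0.30 SE, adjusted p = 0.0239). H2-D1 measured 378, 373 and 349.7 FPKM against 786, 769, 936 and 933 FPKM (-1.21 ± 0.23, adjusted p = 0.0222). For both heavy chains the groups were well apart, with no library between them. B2m measured 955, 747 and 663 FPKM against 1886 to 2506 FPKM (-1.45 ± 0.30, adjusted p = 0.039). Nlrc5 measured 3.50, 2.42 and 1.97 FPKM against 10.4 to 11.8 FPKM (-1.74 ± 0.31, adjusted p = 0.0141).

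The count of 7 rested on all the libraries. It was 1 without KO-8-homo tumor replicate 2 and 1 without KO-8-homo tumor replicate 3, 4 without KO-8-homo tumor replicate 1, WT-young tumor replicate 3 or WT-young tumor replicate 4, and 5 at most with any 1 library left out. The B2m call was lost in 10 of 15 other settings (adjusted p up to 0.174) and that of H2-K1 in 8 (adjusted p up to 0.115), for both genes with every removal of a single library, and that of H2-D1 in 6. Psmb9 was called in each of these fits and in the other settings tried, with adjusted p of 0.00249 to 0.036, and every one of the 10 differences stayed below 0 in all 15 settings. In the 2 fits that left 1 member, 18 and 25 genes of all were called, against 63 with all libraries.

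**Figure D3:**
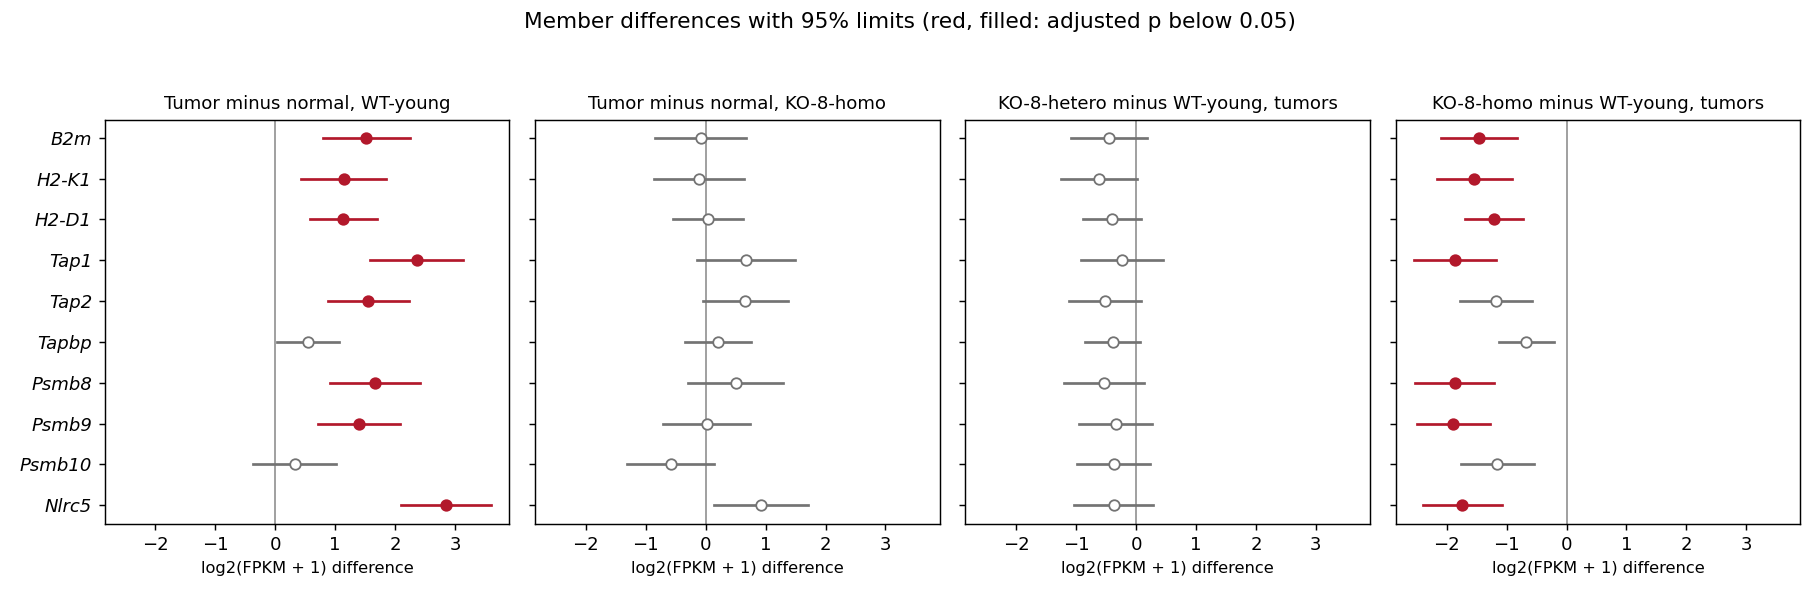
Differences on the log2(FPKM + 1) scale (horizontal axis) with 95% limits for the 10 genes in 4 comparisons; filled red points passed an adjusted p of 0.05. All 10 lie right of 0 for WT-young tumors and 8 of them passed, none passed within KO-8-homo, and all 10 lie left of 0 for KO-8-homo against WT-young tumors, of which 7 passed.

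Within the KO-8-homo mice, no member was called between tumor and normal tissue. This comparison and the next were added after the data had been seen. Of the 10 genes, 0 were called, where 23% of all genes were, and by unadjusted p below 0.05 there was 1 of the 10, Nlrc5, against 37.4% of all genes. Ranges were apart in 6 of the 10, with Tap1, Tap2, Tapbp, Psmb8 and Nlrc5 higher in tumors, as were 36% of all genes, and Psmb10 lower, as were 32.7%. The normal libraries had 501 and 417 FPKM of H2-K1, within or just above the 381 to 477 FPKM of the tumors, a difference of -0.11 with 95% limits from -0.86 to 0.63. They had 25.7 and 20.8 FPKM of Psmb9, within the 19.6 to 27.0 FPKM of the tumors (0.02, 95% limits from -0.71 to 0.75). The limits are wide, since there were 2 normal libraries, and a missed threshold does not show that the tissues were alike. Nlrc5, at 3.50, 2.42 and 1.97 FPKM in tumors and 1.04 and 0.751 FPKM in normal tissue, differed by 0.92 (adjusted p = 0.0826), and Tap1 by 0.67 (adjusted p = 0.216).

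The difference of the tumor-normal differences between KO-8-homo and WT-young was below 0 for all 10 genes, from -1.93 ± 0.51 (SE) for Nlrc5 to -0.35 ± 0.36 for Tapbp, and 0 passed the test, as did 0% of all genes. By unadjusted p below 0.05 there were 7 of the 10 (B2m, H2-K1, H2-D1, Tap1, Psmb8, Psmb9 and Nlrc5) and 6.26% of all genes. A smaller tumor effect in KO-8-homo was thus not established by this test, in which the same KO-8-homo and WT-young tumors enter again.

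The heterozygous tumors spanned a wide range, which reached into that of WT-young and, for some genes, into that of KO-8-homo. Against WT-young tumors, 0 of the 10 genes were called in KO-8-hetero (0.00725% of all genes) and 0 in KO-1-hetero (2.88% of all genes). By unadjusted p below 0.05 there were 0 and 1 of the 10, against 6.96% and 19.1% of all genes. The KO-8-hetero tumors had 1196, 465 and 921 FPKM of H2-K1, and those of KO-1-hetero had 1165, 589 and 1304 FPKM. In each of these groups replicate 2 was the low one, and the other two reached or neared the WT-young range. The KO-8-hetero replicate 2 value lay within the 381 to 477 FPKM of KO-8-homo. Psmb9 was also lowest in replicate 2 of each, with 74.8, 51.7 and 90.2 FPKM in the KO-8-hetero tumors and 82.8, 39.5 and 111 FPKM in those of KO-1-hetero. Psmb10 did not, with its lowest KO-8-hetero value, 56.1 FPKM, in replicate 1. Nlrc5 in KO-1-hetero, at 9.64, 2.77 and 8.31 FPKM, was the 1 gene of the 10 with its range apart from WT-young (-0.73, adjusted p = 0.212), as had 14.8% of all genes. In KO-8-hetero that gene was Psmb8, at 128, 83.1 and 127 FPKM (-0.54, adjusted p = 0.72), and 4.39% of all genes.

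Leukocyte markers summed to 234 to 342 FPKM in the KO-1-hetero tumors, above the 118 to 144 FPKM of WT-young, and to 116 to 189 FPKM in the KO-8-hetero tumors. Their part in these values was not tested.

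The homozygous and heterozygous tumors of the KO-8 title were compared directly. None of the 10 genes passed the test, where 7 genes of all, or 0.0507%, did. By unadjusted p below 0.05 there were 9 of the 10, all but Tapbp, and 5.8% of all genes, and 7 of the 10 had ranges apart and lower, as had 4.76% of all genes. The strongest were Psmb9 (-1.55 ± 0.31 SE, adjusted p = 0.0688) and Tap1 (-1.62 ± 0.35, adjusted p = 0.11). The KO-8-hetero tumors had 50.5, 29.9 and 53.3 FPKM of Tap1, all above the 11.1 to 15.3 FPKM of KO-8-homo. Without KO-8-hetero tumor replicate 1, 2 of the 10 were called, among 342 genes in all. When tumors of the heterozygous groups were set against each other, 0 of the 10 and 0% of all genes were called, with 0 of the 10 and 9.88% of all genes at an unadjusted p below 0.05.

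Among the 14 tumors the levels of the 10 genes varied together. The 3 KO-8-homo tumors were among the lowest 3 tumors for 7, 9 and 10 of the 10 genes (replicates 1, 2 and 3), and WT-young tumor replicate 4 was among the highest 3 for 9. Pearson's r of a gene with the mean of the other 9, over the 14 tumors, ran from 0.709 for Psmb10 to 0.974 for Psmb8. H2-K1 and H2-D1 had r = 0.99, with shared sequence between them, and Psmb9 and Psmb8 r = 0.987 without any. Over all 24 libraries, r with the mean of the other 9 ran from 0.399 for Psmb10 and 0.764 for Nlrc5 to 0.971 for H2-D1. These values describe libraries that share group and depth, and carry no test.

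The balance between the immunoproteasome and the constitutive proteasome was taken as a ratio of FPKM values within each library, for the 3 catalytic pairs that replace one another: Psmb8 for Psmb5, Psmb9 for Psmb6 and Psmb10 for Psmb7. FPKM is scaled by transcript length, so that a ratio compares levels per length. The ratio Psmb8 to Psmb5 was 0.779, 0.932, 0.869 and 1.11 in WT-young and 1.62 in WT-old tumors, and it was 0.312, 0.252 and 0.253 in the KO-8-homo tumors. In the 4 WT-labelled normal libraries it was 0.218 to 0.603. The KO-8-homo tumors thus lay within the range of WT-labelled normal tissue. They lay above their own normal libraries, which had 0.248 and 0.170.

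Psmb9 to Psmb6 was 0.522, 0.562, 0.527 and 0.710 in WT-young tumors and 0.198, 0.199 and 0.161 in KO-8-homo tumors. Psmb10 to Psmb7 was 0.613, 0.677, 0.711 and 1.02 against 0.333, 0.442 and 0.406. In all 3 pairs the groups were apart. Exact two-sided permutation tests of the log2 ratio, added after the data had been seen, gave p = 0.0571 for each pair, the smallest p that 3 against 4 libraries allow (adjusted p = 0.0952 over 10 tests). Between WT-labelled tumors and normal tissue, the ratio Psmb8 to Psmb5 was 2.51-fold and Psmb9 to Psmb6 2.34-fold (exact permutation p = 0.0159 each, the smallest that 5 against 4 allow, adjusted p = 0.0794). Psmb10 to Psmb7 was 1.01-fold (exact permutation p = 0.952, adjusted p = 0.952).

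The constitutive subunits were measured without a call in either comparison. In KO-8-homo against WT-young tumors they differed by -0.13 (Psmb5), -0.29 (Psmb6) and -0.24 (Psmb7) on the log2 scale (adjusted p = 0.808, 0.503 and 0.647). In WT-labelled tumor against normal tissue they differed by 0.15, 0.08 and 0.07.

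**Figure D4:**
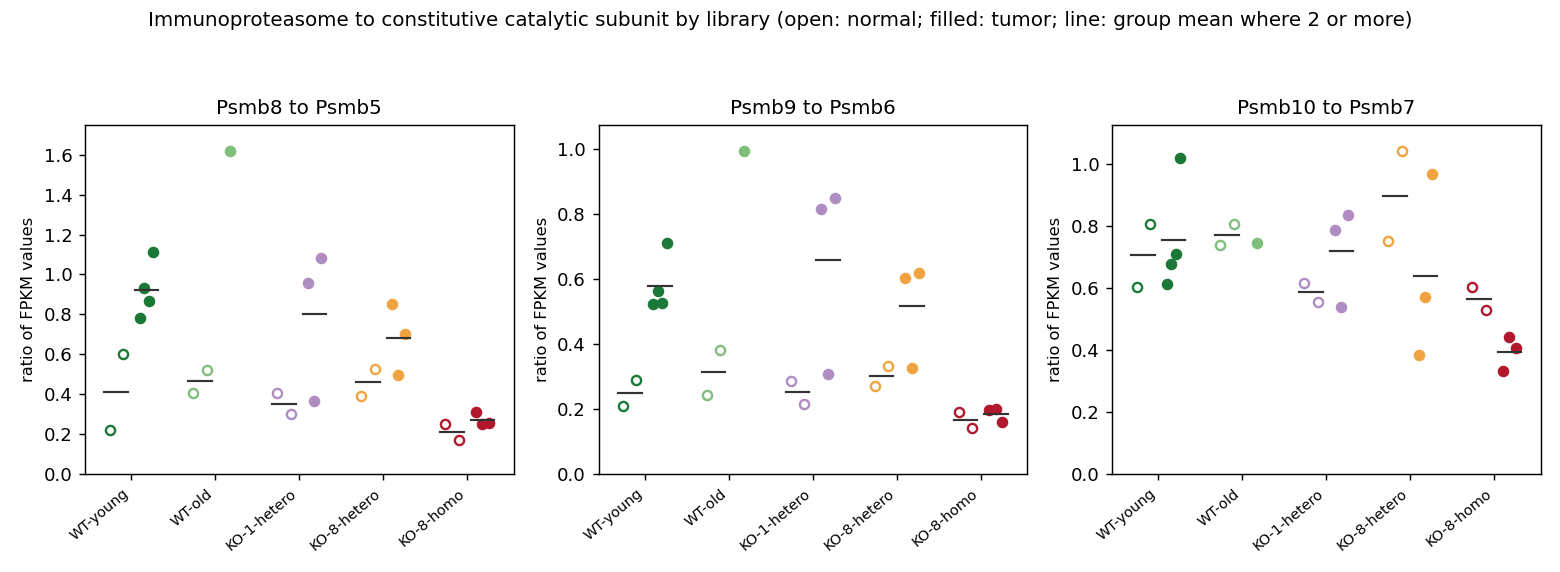
Ratio of the FPKM of each immunoproteasome subunit to the constitutive subunit it replaces (vertical axes start at 0), by library, with normal tissue as open and tumors as filled circles and a line at the mean of groups with 2 or more libraries. The KO-8-homo tumors lie at 0.161 to 0.442 in the 3 panels, below the 0.522 to 1.11 of the WT-young tumors.

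The ratio of B2m to the summed heavy chains H2-K1 and H2-D1 was 0.957 to 1.09 in WT-young and 0.907 to 1.12 in KO-8-homo tumors, with overlap (0.963-fold, exact permutation p = 0.571, adjusted p = 0.635). H2-K1 to H2-D1 was 1.4 to 1.51 in WT-young and 1.09 to 1.26 in KO-8-homo tumors, with ranges apart (exact permutation p = 0.0571, adjusted p = 0.0952). That ratio was 0.797-fold, and it rests on genes whose reads are partly shared.

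The wider pathway was described with 5 lists of genes. In KO-8-homo against WT-young tumors 0.399% of all genes were called lower and 0.058% higher, shares that apply to each list in that comparison. Of 14 partners in processing and loading, 3 fell in KO-8-homo against WT-young tumors and none rose, with a list median of -0.23 against 0.00 for all genes. The 3 were Tapbpl (-0.98 ± 0.17 SE, adjusted p = 0.014), a relative of tapasin, and Psme1 (-0.78, adjusted p = 0.0169) and Psme2 (-0.83, adjusted p = 0.0413), which form the PA28 activator of the proteasome. Psme1 measured 131, 127 and 128 FPKM in KO-8-homo and 194, 222, 215 and 262 FPKM in WT-young tumors. Erap1, the peptidase that trims peptides in the endoplasmic reticulum, differed by -0.48 (adjusted p = 0.221), and the chaperones Calr, Canx and Pdia3 by -0.03, 0.07 and -0.14 (adjusted p = 0.975, 0.912 and 0.718).

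Of 21 other class I heavy chains and relatives, 19 passed the filter, of which 7 were called lower and none higher, with a median of -0.79. By smallest p these were H2-T9 (-1.32 ± 0.18 SE), H2-T22 (-1.19 ± 0.16), H2-T10 (-1.22 ± 0.19) and H2-L (-1.89 ± 0.31), with adjusted p of 0.00201, 0.00201, 0.00535 and 0.00758. H2-T9 stood at 21.0, 20.4 and 20.6 FPKM in KO-8-homo, against 48.1, 51.7, 53.4 and 59.9 FPKM in WT-young. Its groups were far apart, as were those of H2-T22. H2-T22 measured 13.8, 10.6 and 13.4 FPKM against 28.2, 29.9, 29.7 and 31.4 FPKM. Reads of these genes are hard to assign, since 43.0% of the H2-T10 and 44.7% of the H2-T22 transcript is shared with other genes. The shared part of H2-T9 and H2-L was not measured. Of the 12 that were not called, 3 are named for their known roles, with differences as follows: Cd1d1, which presents lipids, -0.03, Hfe, which acts in iron uptake, -0.15, and Fcgrt, the receptor of immunoglobulin G, -0.03 (adjusted p = 0.987, 0.694 and 0.987).

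In WT-labelled tumors against normal tissue, 7 of the 19 were called higher and 4 lower, where 15.5% of all genes were called higher and 14.8% lower; the same shares apply to the other lists in this comparison. The higher genes by smallest p were H2-Q5 (2.57 ± 0.43 SE), H2-Q4 (1.86 ± 0.31), H2-Q7 (3.30 ± 0.57) and H2-T10 (1.18 ± 0.22). Their reads are likewise hard to assign, with 24.25% of the H2-Q4 and 34.9% of the H2-Q7 transcript shared with other genes. The shared part of H2-Q5 was not measured. The lower genes were H2-Q1 (-1.44, adjusted p = 0.0111), H2-Q2 (-1.34, adjusted p = 0.0232), H2-T3 (-2.55, adjusted p = 0.0425) and Fcgrt (-0.71, adjusted p = 0.0409). H2-T3 is the thymus leukemia antigen of intestinal epithelium. H2-Q7 measured 146, 122, 149.6 and 76.8 FPKM in WT-young and 56.8 FPKM in WT-old tumors, against 13.5, 4.93, 9.52 and 12.7 FPKM in normal tissue. Among KO-8-homo tumors it was at 26.9, 11.6 and 14.3 FPKM, a level named here after it was seen. Of the 14 partners, 1 rose in WT-labelled tumors, Tapbpl (0.75 ± 0.20 SE, adjusted p = 0.00805).

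Of 18 regulators of class I transcription, 0 were called in KO-8-homo against WT-young tumors, and their median difference was -0.06. Irf1, which binds interferon-response elements, stood at 58.3, 60.8 and 63.0 FPKM in KO-8-homo, against 108, 106, 123 and 187 FPKM in WT-young (-1.06, adjusted p = 0.138). Its groups did not overlap. Irf9 differed by -0.76 (adjusted p = 0.19) and Ciita, the activator of class II genes, by -0.95 (adjusted p = 0.337). The RFX subunits, with which NLRC5 acts, differed by 0.11 (Rfx5), -0.15 (Rfxap) and -0.10 (Rfxank), with adjusted p of 0.862, 0.683 and 0.895.

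In WT-labelled tumors against normal tissue, 6 of these 18 regulators rose and none fell. Among them were Rfx5 (0.87 ± 0.17 SE), Irf9 (1.06 ± 0.22) and Ciita (1.60 ± 0.47), with adjusted p of 0.000755, 0.00124 and 0.014. In KO-8-homo tumors against their normal tissue, 5 of the 18 rose, where 11.8% of all genes were called higher; by smallest p these included Stat3 (0.76), Rfx5 (0.73), Nfkb1 (0.48) and Irf9 (0.85), with adjusted p of 0.00467, 0.00892, 0.0156 and 0.0292.

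Of 15 interferon ligands, receptors and signalling genes, 11 passed the filter. None of them was called in KO-8-homo against WT-young tumors, with a median of 0.05, and the smallest p belonged to Jak2 (-0.34), Socs1 (-0.67), Socs3 (0.57) and Ifnar2 (0.36), with adjusted p of 0.486 to 0.644. In WT-labelled tumors 5 of the 11 rose, among them Socs3 (1.90 ± 0.33 SE), a feedback inhibitor of cytokine signals, the receptor subunits Ifnar1 (0.67) and Ifnar2 (0.66), and the kinase Jak2 (0.44), with adjusted p of 0.000312, 0.0077, 0.0196 and 0.0213. Ifng, the ligand, did not pass the filter and was not tested. It measured 0.421, 0.428, 0.565 and 1.03 FPKM in WT-young tumors, against 0.184, 0.0855 and 0.04 FPKM in those of KO-8-homo, and was listed at 0 in both WT-young normal libraries. At values this low the unknown fragment totals limit what can be read.

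Of 11 genes for class I receptors and cytotoxic effectors, 7 passed the filter and 0 were called in KO-8-homo against WT-young tumors. Cd274, which encodes PD-L1 and is itself an interferon target, measured 5.17, 3.30 and 3.03 FPKM in KO-8-homo and 6.18, 7.52, 9.27 and 20.0 FPKM in WT-young tumors (-1.17, adjusted p = 0.18). Klrd1, a receptor chain of NK and T cells, differed by -0.57 (adjusted p = 0.482), Pdcd1, the gene of PD-1, by 0.44 (adjusted p = 0.549), and Cd8b1, a chain of the CD8 co-receptor, by -0.53 (adjusted p = 0.557). In WT-labelled tumors against normal tissue 2 of the 7 rose, Cd274 (1.75 ± 0.34 SE, adjusted p = 0.000757) and Pdcd1 (1.19 ± 0.34, adjusted p = 0.0107).

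Markers of other cells were set beside the low class I genes of the KO-8-homo tumors. Leukocyte markers summed to 109 to 229 FPKM in these and to 118 to 144 FPKM in WT-young tumors, and T cell markers (Cd3d, Cd3e, Cd3g, Cd2, Cd4 and Cd8a) to 13.8 to 20.7 and 11.9 to 21.7 FPKM, so that both overlapped. Neutrophil markers summed to 420.3 to 1467 against 68.5 to 458 FPKM, and markers of B and plasma cells to 279 to 626 against 107 to 314 FPKM. Macrophage markers were higher in all 6 genes, with sums of 362.9 to 548 against 248 to 362.5 FPKM. Epithelial markers were lower, at 4887 to 5631 against 6227 to 10182 FPKM, and smooth muscle markers higher, at 308 to 734 against 123 to 219.5 FPKM, with ranges apart in both, as for the macrophage sum. No gene of these lists was called in this comparison. NK markers (Ncr1, Klrb1c, Klre1 and Eomes) did not pass the filter, and Ncr1 and Klre1 were each at 0 in 2 libraries. The part of epithelial, macrophage and smooth muscle content in the result was not tested.

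**Figure D5:**
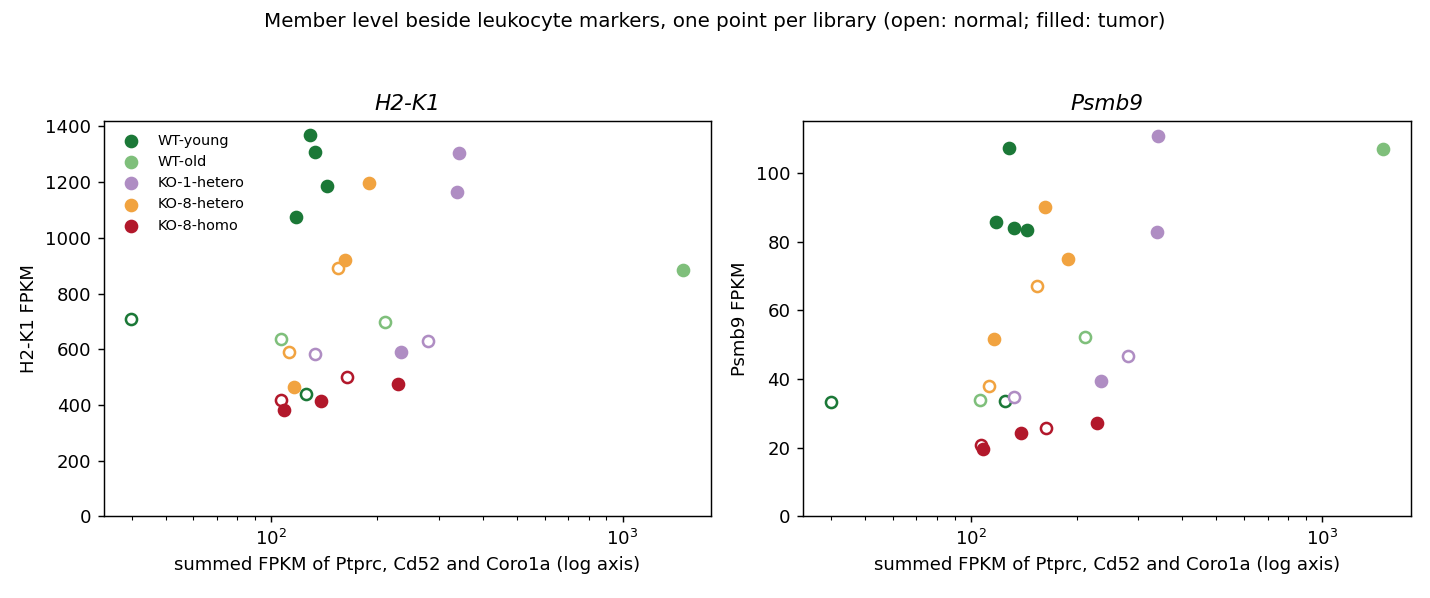
H2-K1 (left) and Psmb9 (right) in FPKM against the summed FPKM of 3 leukocyte markers on a log axis, with 1 point per library, open for normal tissue and filled for tumors. The KO-8-homo tumors, with marker sums of 109 to 229 FPKM, lie at 381 to 477 FPKM of H2-K1. The WT-young tumors, with sums of 118 to 144 FPKM, lie at 1074 to 1371 FPKM, and the WT-old tumor lies far right.

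Genes outside the list with the most similar pattern were ranked by Pearson's r with the mean of the 10 standardised values, as a description without a test. Over all 24 libraries the closest were Ube2l6 (0.948), Uba7 (0.923), Zbp1 (0.918), Ifi35 (0.893) and H2-Q4 (0.891), followed by Psme1, H2-T22, H2-Q9, H2-T9 and Gm12250 (0.877 to 0.883). Over the 14 tumors they were H2-T9 (0.989), H2-Q9 (0.962), Gbp7 (0.95), H2-Q8 (0.948) and Ube2l6 (0.946), followed by H2-T22, Il18bp, Gm12250, Gm4951 and Igtp (0.932 to 0.942). The class I genes H2-T9, H2-Q9 and H2-T22, together with Ube2l6 and Gm12250, stood in both rankings.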

How the data were processed

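The deposited files give FPKM values per gene for each library; per the submitters' processing notes, the authors used TopHat2 2.1.1, Bowtie2 2.2.8, SAMtools 0.1.18 and Cuffdiff 2.2.1 with mm10. Total RNA had been extracted and made into stranded mRNA libraries, per the labels' protocols. Counts were not used here, so fragment totals are unknown.

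Values were tested as log2(FPKM + 1) in limma 3.58.1 (R 4.3.3) with a mean-variance trend, over the 13799 genes with at least 1 FPKM in at least 4 libraries, two-sided, with Benjamini-Hochberg adjustment over all of them and a threshold of 0.05. Comparisons by label used a model of label and tissue, and those by title used a model of the 10 title and tissue groups, each over all 24 libraries. There were 11 planned comparisons and 2 added ones. Ratios were tested by exact permutation in Python 3.11.15 with scipy 1.17.1. The fit was tested on simulated data: 68.6% of genes changed by 1 on the log2 scale and 93.4% of those changed by 2 were recovered for KO-8-homo against WT-young tumors (13799 genes). There, 200 genes were changed, and all genes varied independently with the same spread in every group. The real libraries need not meet these settings, so the shares check the fit and do not give its power in these data. No pair of replicates of a group held identical values.

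The members and lists were chosen with earlier results of these data known. All 10 members were named, and of each list the 4 genes with the smallest p, except 1 regulator that is not reported here; the chaperones, RFX subunits, proteasome pairs and unusual class I relatives were named for their roles, after their values were seen. Alternatives were another pseudocount, no filter or a filter of 5 FPKM, median scaling, no trend, a replicate block, an Xist term, and leaving out the WT-old or single libraries. Promoters were RefSeq sequences on GRCm38.p6.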

Additional observations from a re-analysis of the deposited data

Results flagged for a closer look

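Each of the 10 genes was examined in each group of 4 to 10 libraries, which gave 50 tests. In 5 of the 50, the highest library lay apart from the others by more than the 95% limit of Dixon's test. Chance passes that limit in about 1 of 20 independent tests. These tests were not independent, since the genes varied together and some groups shared libraries. KO-8-hetero normal replicate 2 had 127 FPKM of Tapbp and 226 FPKM of Psmb10 among the 6 KO-labelled normal libraries. WT-young tumor replicate 4 had 107 FPKM of Psmb9 and 172 FPKM of Psmb10 among the 4 WT-young tumors. WT-old normal replicate 2 had 52.1 FPKM of Psmb9 among the 4 WT-labelled normal libraries.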

How the results depend on the processing

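Of the members' log2 differences in 11 of the 13 comparisons, recomputed under the alternatives, 1900 kept their direction and their side of the threshold, 57 lost it, 12 gained it and 21 changed sign. In the 2 comparisons left out of these totals, 10 members changed sign in at least 1 of 18 settings (KO against WT label, normal tissue) and 9 in at least 1 of 14 (KO-1-hetero against KO-8-hetero tumors). Replicate numbers did not pair the libraries: 18 pairs of tumors with the same number had correlations of -0.22 to 0.53 (median 0.04). With a replicate block, 4 members were called in WT-labelled tumor against normal tissue and 3 in KO-8-homo against WT-young tumors, and the differences were -0.13 for Psmb10 in WT-labelled tumor against normal and -0.034 for H2-D1 and -0.070 for Psmb9 in KO-8-homo tumor against normal. With an Xist term, 7 members were called in KO-labelled tumor against normal tissue, and B2m differed by -0.15 in KO-1-hetero against WT-young tumors. The share of all genes called with that term is not given here. In KO-8-homo tumor against normal, 1 member was called with a pseudocount of 0.1, and Psmb9 was at -0.0019 with median scaling. When 1 library was left out, 5 to 8 members were called in WT-labelled tumor against normal, 4 to 8 in WT-young, 1 to 5 in KO-8-homo against WT-young tumors and 0 to 2 in KO-8-homo against KO-8-hetero tumors; where this left a group with 1 library, its spread was assumed to equal that of the others. In the other comparisons the sign changed in the following ranges: Psmb10, -0.041 to 0.17 in WT-labelled tumor against normal; B2m -0.23 to 0.38, H2-K1 -0.57 to 0.0039, H2-D1 -0.39 to 0.035 and Psmb9 -0.64 to 0.094 in KO-1-hetero against WT-young; Tap1 -0.38 to 0.025 and Psmb10 -0.72 to 0.026 in KO-8-hetero against WT-young; B2m -0.23 to 0.036, H2-K1 -0.25 to 0.018, H2-D1 -0.17 to 0.23 and Psmb9 -0.13 to 0.17 in KO-8-homo tumor against normal; and Tapbp -0.83 to 0.14 for the difference of tumor-normal differences. The cause of these changes was not tested. Depth is known only as a relative value, which limits what low genes can show.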
